A study of Mus musculus with 96 samples.

Results

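The enzymes that place and remove methyl groups on histone lysines were followed across 7 mouse tissues. Members were all rows of the count table whose gene symbol begins with Kdm1 to Kdm8, Kmt2, Kmt5 or Setd and a number, together with Ezh1, Ezh2, Eed, Suz12, Ehmt1, Ehmt2, Suv39h1, Suv39h2, Dot1l, Nsd1, Nsd2 and Nsd3. Kdm5c, Kdm5d and Kdm6a were left out by the same rule, and 46 of 56941 gene rows remained. The animals were 2 month-old mice of 5 genotypes: WT, 4Fj, 4FsB, 4Fk and 4FsA. All but WT are reprogrammable strains, made so that reprogramming factors such as Pou5f1 can be switched on in the living animal. Spleen came from WT, 4Fj and 4FsA animals. The sources used here do not give the promoter that drives the factors, or whether and how they were induced. The columns of the table carry a tissue code and a running number that the labels do not tie to an animal or a genotype, so each tissue group below mixes genotypes and no strain was compared with WT. Heart had 14 libraries, spleen 7, and each of the other 5 tissues (brain, kidney, liver, small intestine, skeletal muscle) 15. Whether libraries of different tissues came from the same animals is not stated, so p-values measure the spread between these libraries.

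Histone lysine methylation is written by SET domain enzymes and by Dot1l, and erased by the Kdm demethylases. Methylation of H3K4 by the Kmt2 and Setd1 enzymes marks promoters and enhancers, H3K36 methylation by Setd2 and the Nsd enzymes marks transcribed genes, and H3K9 methylation by Suv39h1, Suv39h2, Ehmt1 and Ehmt2 marks silent chromatin. The Polycomb repressive complex PRC2 methylates H3K27 through either of its alternative catalytic subunits, Ezh1 or Ezh2, which need the shared subunits Eed and Suz12. Ezh2 is known to be abundant in dividing cells and Ezh1 in cells that have left the cycle. H3K9 methylation and PRC2 are both known for their part in resetting cell identity, the process that Pou5f1 and the other reprogramming factors set off.

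The promoter windows of Ezh2, Ezh1 and Suv39h1 are printed first. These genes were picked with their values in view, because Ezh2 and Suv39h1 were distributed over the tissues in another way than Ezh1. Each is the run of 250 bases before the annotated start, 5′ to 3′ in the direction of the gene, from RefSeq on build GRCm38.p6. Capitals mark the CCAAT box, a promoter element searched on both strands as CCAAT and ATTGG, and no other motif was searched. Ezh2 lies on the minus strand at chr6:47595031-47595280, Ezh1 on the minus strand at chr11:101226464-101226713 and the first Suv39h1 start on the minus strand at chrX:8074761-8075010.
Ezh2: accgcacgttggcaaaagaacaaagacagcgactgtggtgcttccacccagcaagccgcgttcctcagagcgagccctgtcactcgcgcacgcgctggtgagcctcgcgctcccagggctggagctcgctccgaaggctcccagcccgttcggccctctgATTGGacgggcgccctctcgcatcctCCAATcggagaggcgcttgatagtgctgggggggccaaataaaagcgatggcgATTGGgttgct
Ezh1: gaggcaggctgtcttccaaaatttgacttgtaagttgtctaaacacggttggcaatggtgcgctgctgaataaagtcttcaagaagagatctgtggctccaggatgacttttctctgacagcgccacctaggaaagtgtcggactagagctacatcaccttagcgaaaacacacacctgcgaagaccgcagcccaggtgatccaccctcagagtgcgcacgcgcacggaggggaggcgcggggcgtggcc
Suv39h1: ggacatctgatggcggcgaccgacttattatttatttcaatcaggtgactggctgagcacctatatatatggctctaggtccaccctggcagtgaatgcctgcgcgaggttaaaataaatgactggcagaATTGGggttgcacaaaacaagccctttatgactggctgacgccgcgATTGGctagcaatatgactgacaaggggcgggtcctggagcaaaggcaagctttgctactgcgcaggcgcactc

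The Ezh2 window held 3 CCAAT boxes, the first Suv39h1 window held 2 and the Ezh1 window held 0. A second annotated Suv39h1 start held 0. Other members did not sort in this way. In the window of each with the most boxes, Kmt5a held 4, Setd3 3, Suz12 and Kdm1a 1, and Eed, Suv39h2 and Setd7 0. The number of boxes was not tested against any tissue or proliferation result. Of all 32851 windows of this length, 33.8% held at least 1 box, 10.1% at least 2 and 2.79% at least 3. RefSeq windows were at hand for 32 of the 46 members, in 44 windows, of which 38.6% held at least 1 box, 20.5% at least 2 and 9.09% at least 3. A match describes the letters only and is not evidence of a bound factor.

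Library totals ran from 6624474 to 17882603 estimated counts, and each tissue carried its own markers: median CPM, the counts per 1000000 of the library, was 55931 for Alb in liver, 2105 for Umod in kidney, 1792 for Fabp2 in small intestine, 17862 for Myh6 in heart, 2417 for Snap25 in brain, 36357 for Myh4 in skeletal muscle and 972 for Cd79a in spleen. In 2 small intestine libraries 62.3% and 78.8% of counts were mitochondrially encoded. The second of these held 0 Ezh2 counts and had the lowest summed level of the members, 128 CPM. Levels of proliferation genes differed between tissues as well as within them. The proliferation level used below is the mean log2(CPM + 1) of Mki67, Top2a, Cdk1, Ccnb1, Ccna2, Mcm2, Mcm5 and Pcna; its median was 5.88 in spleen and 4.97 in small intestine, and between 1.18 and 1.94 in the other 5 tissues.

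Of the 46 members, 43 reached a median of 1 CPM in at least 1 tissue. The exceptions were Kdm6bos, an RNA antisense to Kdm6b that stayed under 1 CPM in every library, Kdm4dl, a close copy of Kdm4d, and Setd9-ps, which was at 0 in all 96 libraries. A count of 0 allows up to 0.168 to 0.453 CPM, depending on the library total, which covers counting error only. Spleen had the highest median CPM for 30 of the 43, brain for 9, small intestine for 2, and liver and skeletal muscle for 1 each. The summed CPM of the members had a median of 3667 in spleen, 2618 in brain, 1805 in small intestine, 1579 in kidney, 1371 in heart, 1157 in liver and 1140 in skeletal muscle. Only for Kdm5a, Kmt2c, Setd2 and Suv39h1 did the 7 spleen libraries lie wholly above those of the tissue with the next highest median, which for each was brain. In bulk RNA, fewer cells of a type and less RNA per cell cannot be told apart.

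Each tissue was compared with the mean of the other 6 by edgeR's quasi-likelihood test on TMM-scaled counts, and a gene was called at an adjusted p under 0.05 and a change of at least 2-fold. Of the 43 members, all of which passed the filter on low counts, 24 were called in at least 1 tissue and 19 in none. In spleen 9 members were called higher, where 21.8% of the 20100 genes tested were, and 0 lower, where 20.5% were. In small intestine 6 were called higher, against 22.2% of all genes, and 0 lower, against 19.7%. Brain had 4 higher and 5 lower, against 29.4% and 24.1% of all genes, and skeletal muscle had 6 higher and 4 lower, against 18.8% and 26.2%.

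The remaining tissues gave few calls among the members. Liver had 1 higher and 2 lower, against 18.8% and 21.5% of all genes. Heart had 0 higher and 3 lower, against 18% and 18.7%. Kidney had 0 higher and 1 lower, against 18.4% and 14%. With TMM scaling at 2-fold, the members' calls as shares of 43 were near or under the share of all genes in each tissue and direction. The counts depend on the scaling, because the tissues differ in how much of a library a few genes take up. With library totals in place of TMM the median log2 fold change over all genes moved from -0.09 to 0.71 in spleen and from -0.31 to -1.14 in skeletal muscle, and with it the members called higher in spleen went to 33, or 76.7% against 40.4% of all genes, and those called lower in skeletal muscle to 21, or 48.8% against 46.5%. In spleen the members' share of higher calls was also above that of all genes at 1.5-fold with TMM, where 22 members or 51.2% were called against 27.3% of all genes, and with library totals without mitochondrially encoded genes, at 60.5% against 33.9%. The median log2 fold change in spleen with TMM was 0.66 over the members and -0.09 over all genes.

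**Figure D1:**
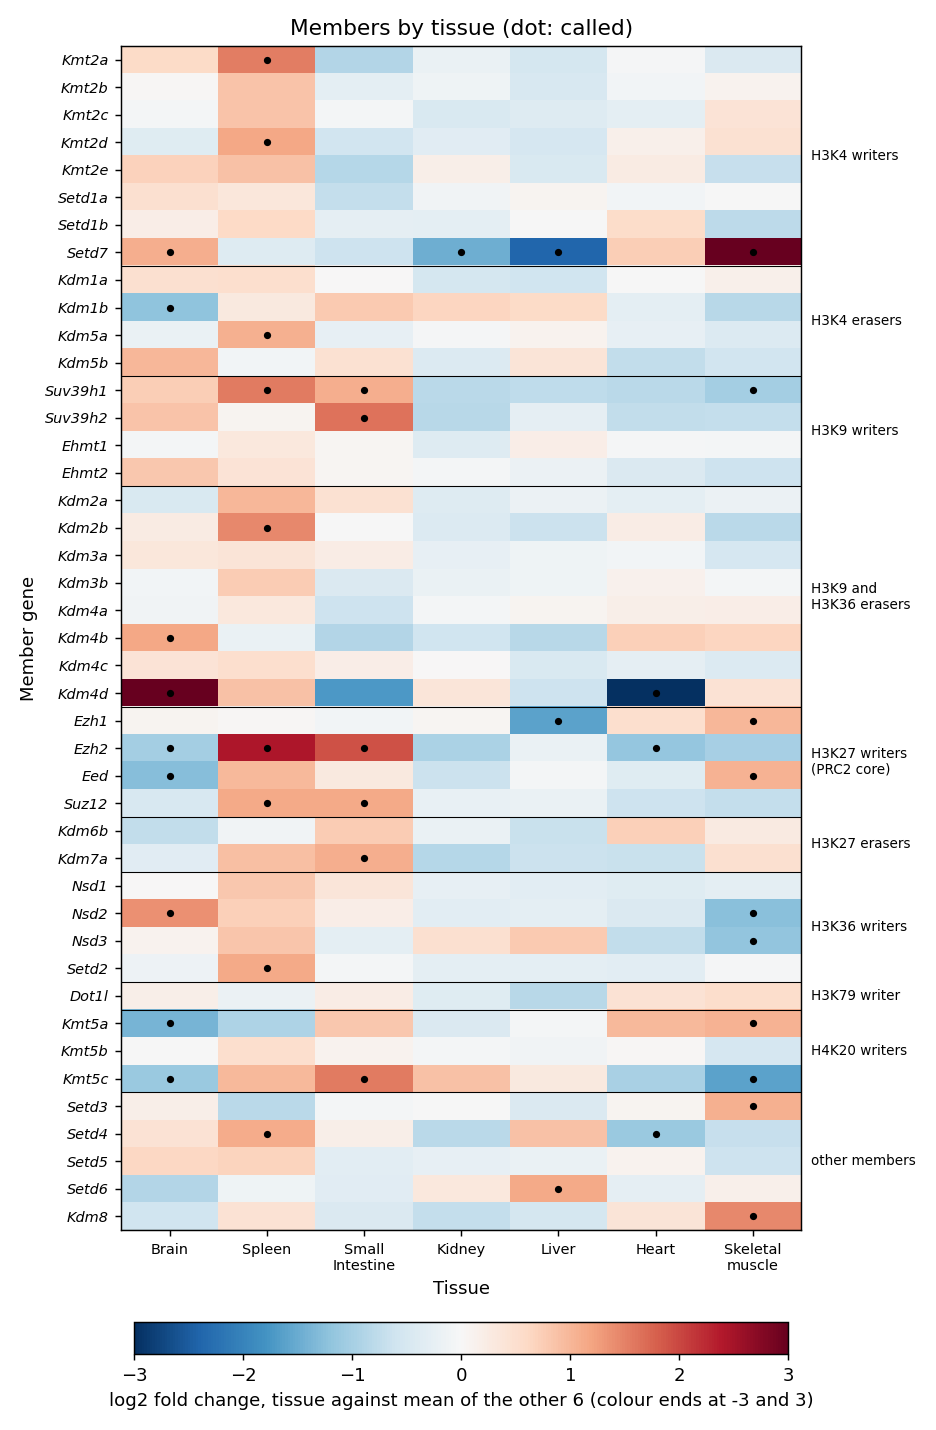
Log2 fold change of each of the 43 tested members (rows, grouped by the lysine they act on) in each tissue (columns) against the mean of the other 6 tissues, TMM-scaled, with a dot where the gene was called. Ezh2 is the darkest red of the spleen column at 2.43, and Setd7 runs from -2.39 in liver to 3.04 in skeletal muscle.

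Of the H3K27 writers, Ezh2 varied most between tissues. Its CPM was 19.2 at the lowest, 47.3 at the median and 85.6 at the highest in spleen, and 0, 19.3 and 74.2 in small intestine. In heart the corresponding values were 0.537, 2.92 and 4.80, and in skeletal muscle 0.861, 2.17 and 4.69. Spleen libraries thus all lay above every library of heart, brain, kidney, liver and skeletal muscle, and the small intestine libraries spread over the whole range. In the edgeR test Ezh2 was higher in spleen by 2.43 ± 0.22 (log2 ± SE, adjusted p = 7.02e-18) and in small intestine by 1.90 ± 0.17 (adjusted p = 2.63e-17). It was lower in heart, at -1.17 ± 0.23 (adjusted p = 5.33e-06), and in brain, at -1.02 ± 0.21 (adjusted p = 1.45e-05); with library totals the brain value was -0.57 and was not called.

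Ezh1, the other catalytic subunit, had a flatter profile with liver at the low end. Its CPM in liver was 2.73 at the lowest, 14.2 at the median and 28.7 at the highest. The other medians ran from 32.8 in skeletal muscle to 80.7 in spleen, and the liver libraries overlapped those of kidney, skeletal muscle and small intestine. Ezh1 was lower in liver by -1.61 ± 0.19 (log2 ± SE, edgeR adjusted p = 1.02e-12). The value in spleen was 0.04 ± 0.23 (adjusted p = 0.909), so that spleen was called for Ezh2 and not for Ezh1. In skeletal muscle Ezh1 was called higher at 1.01 (adjusted p = 1.07e-08), which was 0.22 and not called with library totals; its CPM there ran from 12.1 to 170.

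Eed and Suz12, the subunits that both forms of PRC2 need, did not follow a single pattern. Suz12 was higher in small intestine (1.13 ± 0.12, edgeR adjusted p = 3.53e-14) and in spleen (1.13 ± 0.16, adjusted p = 3.97e-09), with medians of 64.0 and 113 CPM against 11.7 CPM in skeletal muscle, the lowest. Eed, the reader of the H3K27 mark within the complex, was lower in brain at -1.27 ± 0.17 (adjusted p = 1.69e-10), or -0.81 and not called with library totals. Its spleen libraries ran from 32.4 to 75.6 CPM and its brain libraries from 9.03 to 14.6 CPM, without overlap. In skeletal muscle Eed was called higher at 1.04 (adjusted p = 7.93e-10), but at 0.09 with library totals it was not called.

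**Figure D2:**
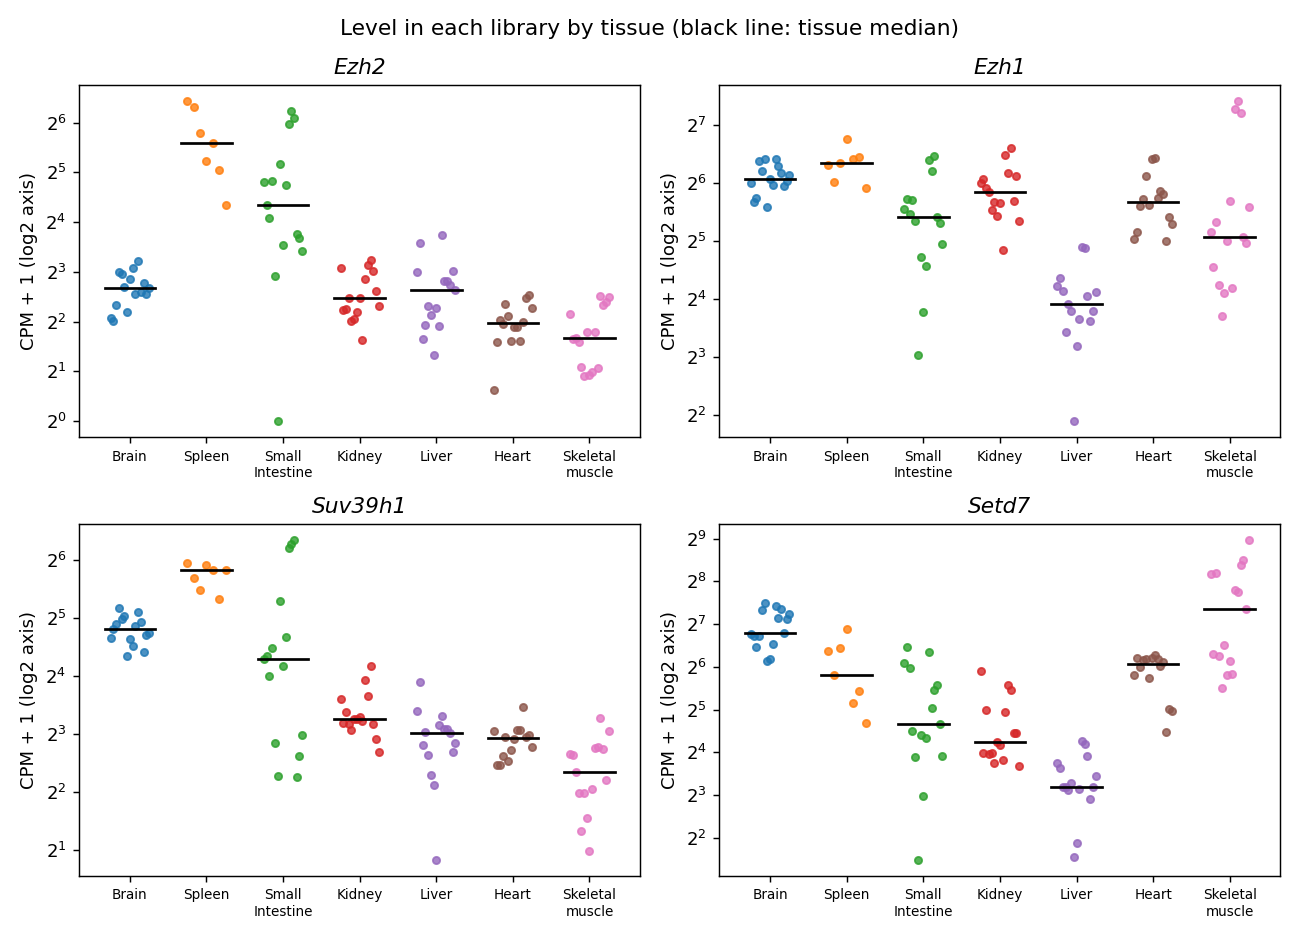
CPM + 1 on a log2 axis of Ezh2, Ezh1, Suv39h1 and Setd7 in each of the 96 libraries (points) by tissue, with the tissue median as a black line. The Ezh2 medians are highest in spleen (47.3 CPM) and small intestine (19.3 CPM), the Ezh1 median is lowest in liver (14.2 CPM), and the Setd7 medians run from 8.16 CPM in liver to 162 CPM in skeletal muscle.

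The ratio of Ezh2 to Ezh1 counts within a library is free of library scaling, and gene length cancels when tissues are compared. Its median was 0.557 in spleen, 0.531 in small intestine and 0.382 in liver. The medians of kidney, skeletal muscle, brain and heart were 0.0807, 0.0789, 0.0768 and 0.0567. Liver stood with the tissues of high ratio although its Ezh2 level, at a median of 5.21 CPM, was close to that of brain (5.39 CPM) and kidney (4.54 CPM); its Ezh1 level was the lowest. Ezh2 counts exceeded Ezh1 counts in 3 of 15 small intestine libraries, in 2 of 7 spleen libraries and in 0 libraries of the other 5 tissues; these are counts and are not corrected for gene length. The liver range, 0.128 to 0.556, overlapped those of kidney, skeletal muscle and heart only at its lowest library.

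Across the 7 spleen libraries the log2 ratio, with 1 count added to each gene, went with the proliferation level at r = 0.998 (exact permutation p = 0.000198, the smallest possible, adjusted 0.000693) and rho = 1 (exact permutation p = 0.000397, adjusted 0.00139). Without the 2 libraries farthest from the median proliferation level r was 0.998. Across the 15 small intestine libraries r was 0.762 (permutation p = 3e-05, adjusted 0.00021) and rho 0.854 (permutation p = 0.00011, adjusted 0.00077), and r was 0.804 without the 2 farthest. In the other 5 tissues r lay between -0.407 and 0.287, with adjusted permutation p of 0.392 or more over the 7 tissues. The ratio was set against this level with the values in view. All permutation tests here are two-sided and treat libraries as exchangeable, although libraries of 1 genotype share a strain.

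**Figure D3:**
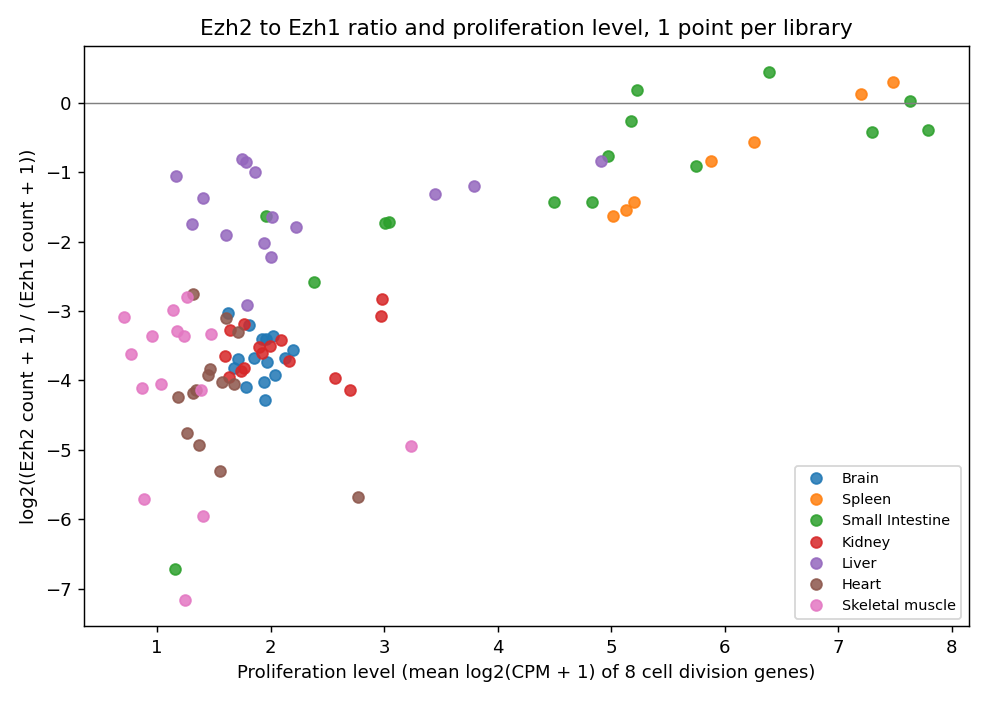
Log2 ratio of Ezh2 to Ezh1 counts (1 count added to each) against the proliferation level, 1 point per library, coloured by tissue, with equal counts at the grey line. Spleen points rise in a single file, small intestine points rise with more spread, and the lowest small intestine point is the library with 78.8% mitochondrially encoded counts and 0 Ezh2 counts.

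Among the H3K9 writers, the heterochromatin enzymes Suv39h1 and Suv39h2 differed between tissues and the euchromatin enzymes Ehmt1 and Ehmt2 were called in no tissue. Suv39h1 ran from 39.5 to 61.3 CPM in spleen with a median of 55.7, from 19.3 to 35.0 CPM in brain with a median of 27.1, and from 3.76 to 80.9 CPM in small intestine with a median of 18.7. The other 4 medians lay between 4.04 and 8.55 CPM. The edgeR test called Suv39h1 higher in spleen (1.55 ± 0.19, adjusted p = 8.15e-12) and small intestine (1.08, adjusted p = 3.63e-10) and lower in skeletal muscle (-1.02, adjusted p = 2.35e-07). Suv39h2, a close relative of Suv39h1, was called higher in small intestine at 1.63 ± 0.26 (adjusted p = 2.65e-08). Its median there was 2.91 CPM, and its range of 0 to 21.8 CPM overlapped the ranges of all other tissues. The medians of brain, 4.57 CPM, and spleen, 3.25 CPM, were above that of small intestine, and skeletal muscle had the lowest, 0.608 CPM. The small intestine libraries highest in Suv39h2, at 21.8, 20.4 and 15.7 CPM, were also those highest in Pou5f1, at 139, 122 and 75.5 CPM. They were also the highest of small intestine in Suv39h1 (73.0 to 80.9 CPM), Suz12 (163 to 222 CPM) and Ezh2 (61.7 to 74.2 CPM). The small intestine calls, of Suv39h2 and of these genes, were not tested without those libraries.

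Of the 8 H3K4 writers, Setd7, which adds a single methyl group and also acts on proteins other than histones, was called in 4 tissues. Its CPM in skeletal muscle was 44.3 at the lowest, 162 at the median and 502 at the highest. In liver the values were 1.92, 8.16 and 18.2 and in kidney 11.8, 18.0 and 59.0, so that all liver libraries lay under all skeletal muscle libraries. Setd7 was higher in skeletal muscle by 3.04 ± 0.16 (edgeR adjusted p = 2.24e-33), the largest change of any member in that tissue, and in brain by 1.08 (adjusted p = 1.57e-08). It was lower in liver, at -2.39 ± 0.22 (adjusted p = 3.71e-17), and in kidney, at -1.46 ± 0.20 (adjusted p = 1.62e-09).

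Of the other 7 H3K4 writers, Kmt2a and Kmt2d were called, both higher in spleen. Kmt2a, the MLL1 enzyme needed for blood stem cells, was at 105 to 251 CPM with a median of 204 in spleen and at a median of 99.4 CPM in brain, the next highest. It was higher in spleen by 1.53 ± 0.19 (edgeR adjusted p = 6.33e-11), and Kmt2d, an enhancer H3K4 methyltransferase, by 1.17 (adjusted p = 2.91e-04). Kmt2b, Kmt2c, Kmt2e, Setd1a and Setd1b were called in no tissue. Among the H3K4 erasers, Kdm5a was called higher in spleen at 1.07 (adjusted p = 2.40e-09) and Kdm1b lower in brain at -1.20 ± 0.18 (adjusted p = 6.30e-09), or -0.65 and not called with library totals; Kdm1a and Kdm5b were called in none.

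Of the 8 erasers of H3K9 and H3K36, Kdm4d and Kdm4b were called higher in brain. Kdm4d, a small H3K9 demethylase, had a median of 1.34 CPM and a range of 0.0692 to 2.88 CPM in brain. It was at 0 CPM in all 14 heart libraries, and its medians were 0.138 CPM in spleen and 0 in the remaining tissues, with a highest value of 0.760 CPM outside brain. Its calls, higher in brain and lower in heart, rest on counts of 28 or fewer per library, and reads could have been split with its close copy Kdm4dl, so no fold is given. Kdm4b, which removes H3K9 methylation, was higher in brain by 1.15 ± 0.13 (edgeR adjusted p = 3.67e-14), with a median of 83.6 CPM and 37.96 CPM in spleen, the next highest. Kdm2b, which brings Polycomb complexes to unmethylated CpG islands, was higher in spleen by 1.43 (adjusted p = 7.42e-07). The other 5 members of this list were called in no tissue.

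Of the H3K27 erasers, Kdm7a was called higher in small intestine at 1.09 (edgeR adjusted p = 1.78e-11) and Kdm6b was called in no tissue. The Kdm7a median in small intestine, 45.9 CPM, was under the spleen median of 85.8 CPM. Among the 4 H3K36 writers, Nsd2 ran from 43.3 to 84.3 CPM in brain and from 2.80 to 10.8 CPM in skeletal muscle, without overlap. Nsd2 was higher in brain by 1.37 ± 0.12 (adjusted p = 2.94e-19) and lower in skeletal muscle at -1.25 ± 0.14 (adjusted p = 7.83e-13). Nsd3 was lower in skeletal muscle at -1.17 ± 0.14 (adjusted p = 1.10e-11), with 5.10 to 28.4 CPM there. Setd2, which trimethylates H3K36, was higher in spleen by 1.13 (adjusted p = 2.52e-07), and Nsd1 was called in no tissue.

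The H4K20 writers moved apart from each other. Kmt5c, which completes H4K20 trimethylation in heterochromatin, was higher in small intestine by 1.56 ± 0.23 (edgeR adjusted p = 3.51e-09) and lower in skeletal muscle at -1.62 ± 0.29 (adjusted p = 7.75e-07) and in brain at -1.10 (adjusted p = 2.28e-04). Its medians were 68.3, 4.49 and 16.2 CPM in those tissues, and its highest median, 87.9 CPM, was in spleen. Kmt5a, which sets the first methyl group during the cell cycle, was lower in brain at -1.39 ± 0.19 (adjusted p = 2.13e-10), and -0.89 and not called with library totals. In skeletal muscle Kmt5a was called higher at 1.05 (adjusted p = 8.22e-09), where 15 libraries ran from 30.1 to 189 CPM. With library totals 0 members were called lower in brain, so the brain call of Kmt5c was lost as well. In skeletal muscle 1 member was called higher with library totals, against 6 with TMM. Kmt5b and the H3K79 writer Dot1l were called in no tissue.

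The remaining members act on other substrates or are less well defined. Setd3, which methylates a histidine of actin, was called higher in skeletal muscle at 1.07 ± 0.08 (edgeR adjusted p = 2.11e-23), and was 0.26 and not called with library totals; its median there, 128 CPM, was under the brain median of 144 CPM. Kdm8 was called higher in skeletal muscle at 1.43 ± 0.21 (adjusted p = 5.41e-09), and was 0.58 and not called with library totals. Setd6 was called higher in liver at 1.13 ± 0.16 (adjusted p = 1.98e-09), and was 0.77 and not called with library totals. Setd4 was higher in spleen by 1.12 (adjusted p = 2.38e-03) and lower in heart at -1.12 ± 0.30 (adjusted p = 8.60e-04), at medians of 13.6 and 1.76 CPM.

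Genes outside the membership rule that belong to the same pathway were taken from 3 lists: 18 other histone lysine methylation enzymes, 10 subunits shared by the H3K4 complexes and 9 accessory subunits of PRC2, of which 36 in all were tested. In spleen 4 were called higher and 6 lower, in small intestine 4 and 4, in brain 5 and 5, in skeletal muscle 4 and 2, in heart 4 and 2, in liver 2 and 4 and in kidney 2 and 5. Of all genes 21.8% and 20.5% were called so in spleen, 22.2% and 19.7% in small intestine and 29.4% and 24.1% in brain. The shares were 18.8% and 26.2% in skeletal muscle, 18% and 18.7% in heart, 18.8% and 21.5% in liver and 18.4% and 14% in kidney. The largest change was in Smyd1, a methyltransferase of striated muscle, at 7.34 ± 0.25 in heart and 7.22 ± 0.25 in skeletal muscle (edgeR adjusted p = 2.42e-46 and 1.79e-46). Of the PRC2 accessory subunits, Epop was higher in small intestine (3.89 ± 0.32) and brain (2.66 ± 0.32), and Phf19 in spleen (2.64 ± 0.30). Mecom was higher in kidney (2.83 ± 0.22), and Hr, an H3K9 demethylase, in skeletal muscle (3.36 ± 0.26). Smyd1 was lower in kidney (-4.93 ± 0.39), small intestine (-4.29 ± 0.37) and spleen (-2.79 ± 0.46). In liver Prdm16 (-3.10 ± 0.28) and Mecom (-2.80 ± 0.33) were lower. Mecom was also lower in brain (-2.26 ± 0.31), and Epop in heart (-2.11 ± 0.47).

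The second question was whether the members went with Pou5f1, which encodes the reprogramming factor Oct4. The highest Pou5f1 value of a library, in CPM, was 2.44 for brain, 6.45 for skeletal muscle, 13.01 for heart, 14.3 for spleen, 18.5 for kidney, 139 for small intestine and 199 for liver. It was at 0 CPM in at least 1 library of each tissue. In each tissue but spleen a slope of each gene on log2(Pou5f1 CPM + 1) was fitted with edgeR and called at an adjusted p under 0.05. Spleen was left out because 3 of its libraries had at least 3 Pou5f1 counts, where 6 were required. The slope is the log2 change of the gene per doubling of Pou5f1 CPM + 1.

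In small intestine 5 of 42 members tested rose with Pou5f1, where 15.4% of the 15738 genes tested did, and 2 fell, where 11.5% did. In liver 1 of 42 rose, where 6.86% of 14146 genes did, and 0 fell, where 4.86% did. Kidney, heart, brain and skeletal muscle gave 0 member calls by edgeR in either direction, against 0.019%, 0.343%, 0% and 0.672% of all genes up and 0%, 1.24%, 0% and 0.00686% down. At an unadjusted p under 0.05 those 4 tissues had 0, 3, 4 and 1 members up and 0, 1, 1 and 0 down. Over all genes, 380 of 15775 were up and 467 down in kidney, and 1040 of 14562 up and 2047 down in heart. In brain 1474 of 17045 were up and 1793 down, and in skeletal muscle 400 of 14581 up and 281 down. DESeq2 called 0 in kidney, 2 up in heart, 1 up in brain and 0 in skeletal muscle. Its shares of all genes called up were 0.0594%, 2.51%, 1.75% and 0.158%. In liver and small intestine the members' shares were under those of all genes.

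**Figure D4:**
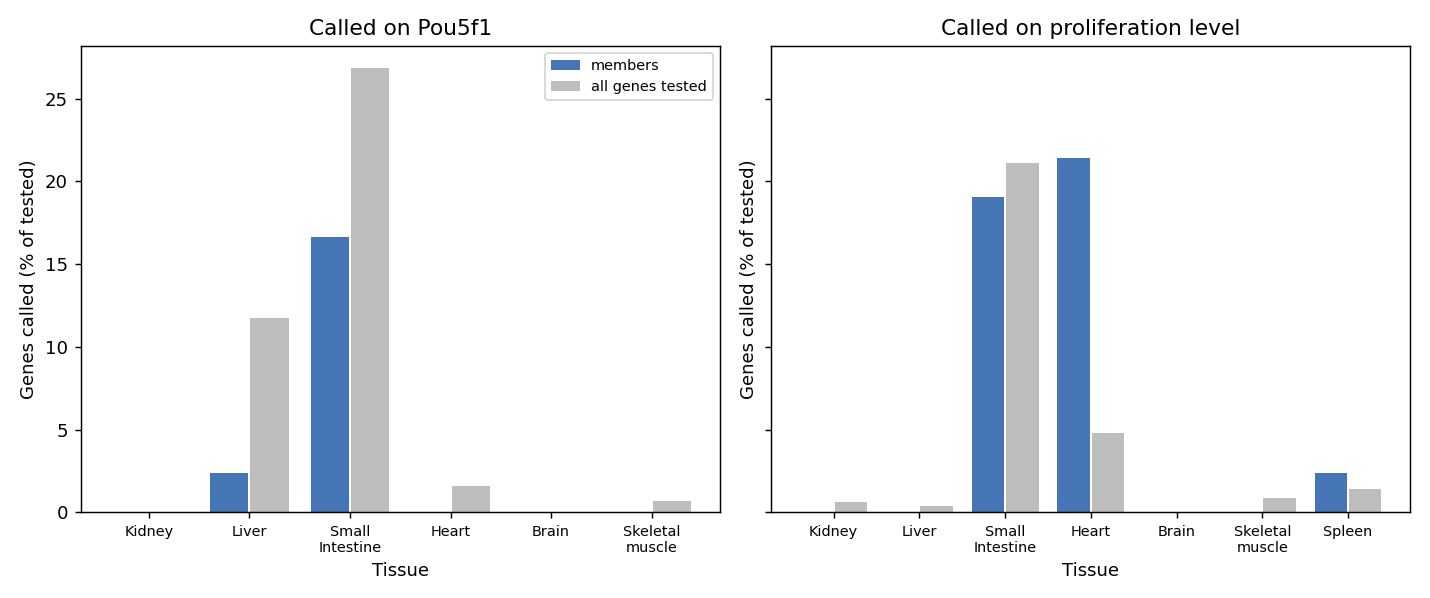
Share of genes called (percent of those tested, both directions together) on Pou5f1 in 6 tissues and on the proliferation level in 7, for the members (blue) and for all genes tested (grey). In small intestine the members' share on Pou5f1 is 16.7% and that of all genes 26.8%; in heart the members' bar on the proliferation level is the taller, and it rests on 1 library.

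Suv39h1, which trimethylates H3K9, had the smallest adjusted p of the members in small intestine. The 3 small intestine libraries highest in Pou5f1, at 139, 122 and 75.5 CPM, held 80.9, 77.0 and 73.0 CPM of Suv39h1, and the 6 libraries with 0 Pou5f1 held 3.76 to 19.2 CPM. These did not overlap, and the libraries between them in Pou5f1 held 3.83 to 38.4 CPM, the 3.83 CPM being in the library with 78.8% mitochondrially encoded counts. The slope was 0.32 ± 0.06 (edgeR adjusted p = 0.000736). With TMM-scaled values r was 0.853 (permutation p = 8e-05, adjusted 0.00158) and rho 0.924 (permutation p = 1e-05, the smallest that the permutations can give, adjusted 0.000677), adjusted over 14292 genes, and r without the 2 libraries farthest from the median Pou5f1 was 0.772. In the edgeR fit without those 2 the slope was 0.33 and the adjusted p 0.0639.

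Suz12, Suv39h2, Kdm1a and Nsd2 also rose with Pou5f1 in small intestine. Suz12 was at 222, 179 and 163 CPM in the 3 libraries highest in Pou5f1 and at 16.6 to 72.5 CPM in the 6 with 0 Pou5f1, again without overlap. Its slope was 0.22 ± 0.04 (edgeR adjusted p = 0.00102), with r of 0.838 and rho of 0.813 (permutation p = 0.0001 and 0.00051, adjusted 0.00176 and 0.0056) and r of 0.693 without the 2 farthest libraries. The slope of Suv39h2 was 0.38 ± 0.12 (adjusted p = 0.0291), that of Kdm1a, the H3K4 demethylase LSD1, 0.20 ± 0.05 (adjusted p = 0.0104), and that of Nsd2 0.18 ± 0.06 (adjusted p = 0.0303). For Nsd2 rho was 0.395 (permutation p = 0.145, adjusted 0.254), and r was 0.609 with all libraries and 0.303 without the 2 farthest. For Kdm1a r was 0.622 (permutation p = 0.00924, adjusted 0.0346) and 0.353 without those 2, and for Suv39h2 0.740 (permutation p = 0.00178, adjusted 0.0104) and 0.57. In the edgeR fit without the 2 farthest libraries all 7 member calls in small intestine were lost, with adjusted p from 0.0542 for Kmt5b to 0.633 for Nsd2 and the directions kept. Ezh2, with a slope of 0.22 ± 0.08 (adjusted p = 0.0561), Eed, with 0.20 (adjusted p = 0.088), and Ezh1, with -0.01 (adjusted p = 0.932), were not called.

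Kmt2c and Kmt5b fell with Pou5f1 in small intestine. Kmt2c, an enhancer H3K4 methyltransferase, had a slope of -0.16 ± 0.04 (edgeR adjusted p = 0.00726), with r of -0.810 and rho of -0.819 (permutation p = 0.00025 and 0.00045, adjusted 0.00289 and 0.00525) and r of -0.710 without the 2 farthest libraries. Kmt5b, which adds further methyl groups at H4K20, had a slope of -0.15 ± 0.05 (adjusted p = 0.0183), with r of -0.718 and rho of -0.705 (permutation p = 0.00304 and 0.00503, adjusted 0.0153 and 0.0227). These falls are relative to TMM scaling. With library totals the slopes were -0.09 for Kmt2c and -0.05 for Kmt5b, with adjusted p of 0.601 and 0.767. In CPM, Kmt2c ran from 26.4 to 36.2 in the 3 libraries highest in Pou5f1 and from 18.4 to 80.5 in the 6 with 0, which overlap.

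**Figure D5:**
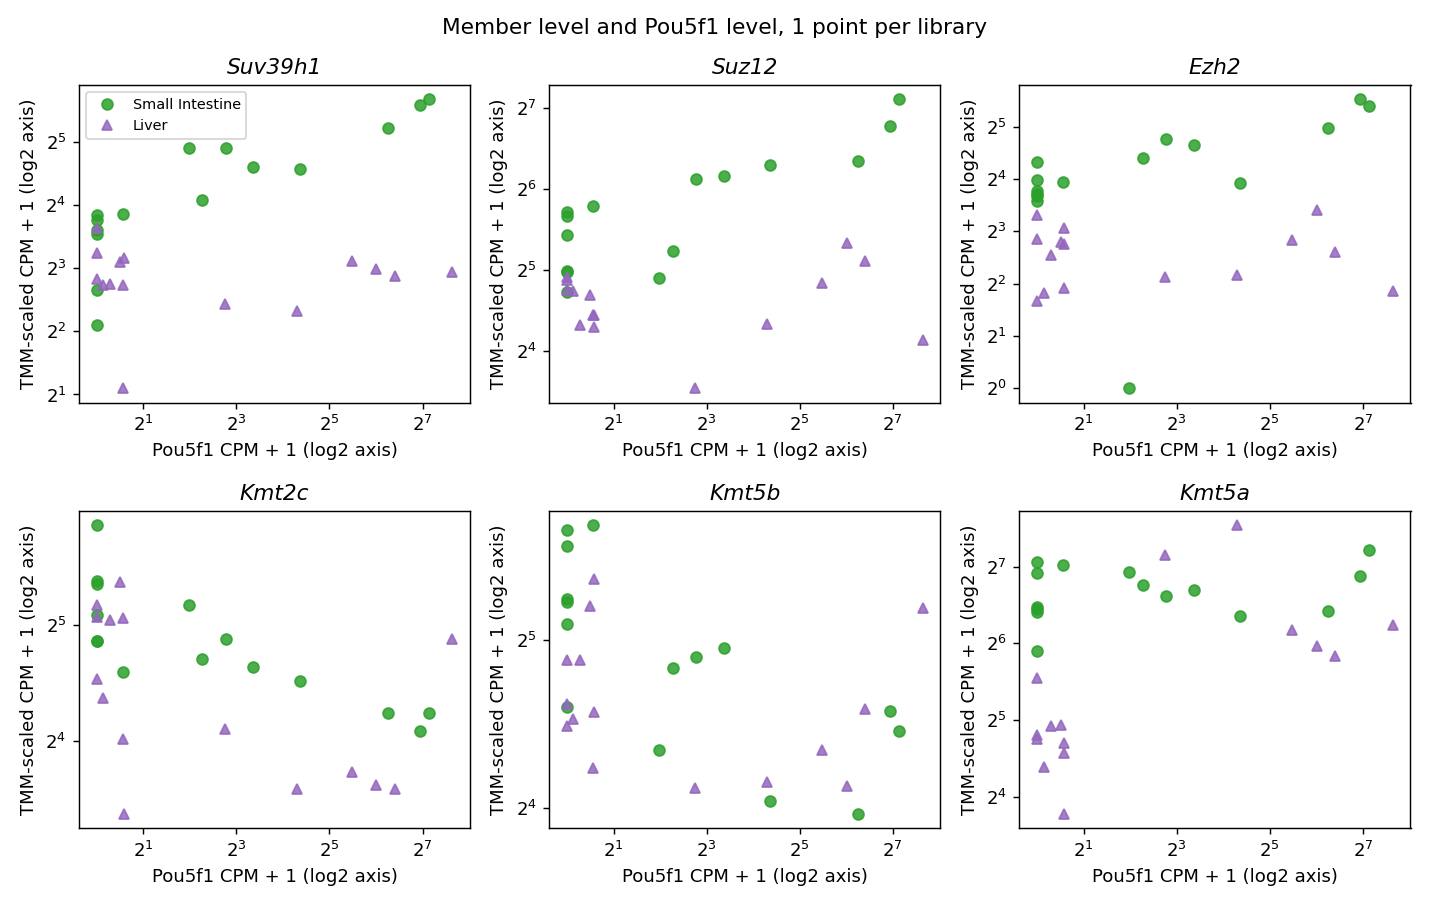
TMM-scaled CPM + 1 of 6 members against Pou5f1 CPM + 1 (both on log2 axes), 1 point per library, for small intestine (circles) and liver (triangles). Suv39h1 and Suz12 climb with Pou5f1 in small intestine and show no such climb in liver, Kmt2c and Kmt5b descend in small intestine, and Kmt5a in liver steps up between low and high Pou5f1.

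Other genes moved with Pou5f1 in the same small intestine libraries. All 8 proliferation genes rose and all 3 small intestine markers, Fabp2, Vil1 and Apoa4, fell with it in the edgeR fit, with slopes from 0.31 for Pcna to 0.64 for Ccnb1 and from -0.54 for Vil1 to -0.94 for Apoa4. The proliferation level was 7.80, 7.63 and 7.30 in the 3 libraries highest in Pou5f1 and 1.96 to 4.97 in the 6 with 0. Across the 15 libraries the correlation of Pou5f1 with the proliferation level had r = 0.766 and rho = 0.767, as a description. With the proliferation level in the fit, 1 member remained called up, Suv39h1 at 0.34 (adjusted p = 0.0238), and 1 down, Kmt2c at -0.20 (adjusted p = 0.0314), while Suz12 was at 0.12 (adjusted p = 0.213) and Nsd2 at -0.028. Of all genes 4.53% were called up and 5.44% down in that fit. Without the 2 libraries of high mitochondrial share 10 members were called up and 5 down, against 20% and 18.3% of all genes. With only the libraries at 1 CPM of Pou5f1 or more 0 were called, against 3.2% of all genes up and 4.49% down.

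In liver Kmt5a was the member called up, at a slope of 0.29 ± 0.08 (edgeR adjusted p = 0.0353). With TMM-scaled values neither r, 0.672 (permutation p = 0.00603, adjusted 0.0579), nor rho, 0.588 (permutation p = 0.0243, adjusted 0.123), passed the adjustment over 12958 genes. The 6 liver libraries highest in Pou5f1, at 5.71 to 199 CPM, held 66.2 to 180 CPM of Kmt5a, and the 9 libraries at 0.494 CPM or less held 8.59 to 56.0 CPM. The values did not overlap, but the 2 highest Kmt5a values, 180 and 169 CPM, were in the libraries with 18.7 and 5.71 CPM of Pou5f1. Among only those 6 libraries the slope was -0.30 (adjusted p = 0.729), and with library totals over all 15 it was 0.30 (adjusted p = 0.0553). Liver thus showed a step between low and high Pou5f1 in Kmt5a and no rise within the high libraries.

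The Suv39h1 slope was tested for a difference between the 2 tissues with the highest Pou5f1. In small intestine minus liver it was 0.33 ± 0.09 (edgeR adjusted p = 0.0188). This difference was fitted with TMM scaling on all libraries of both tissues and was not refitted under other settings. In liver r was 0.036 and rho -0.140 (permutation p = 0.908 and 0.619). Suv39h1 was the 1 member of 42 called up in that comparison, with 0 down, where 3.87% of 16991 genes were called up and 4.37% down. Suz12 had a difference of 0.19 (adjusted p = 0.0579) and Ezh2 of 0.21 (adjusted p = 0.274). Of the pathway genes outside the rule, 10 rose and 1 fell with Pou5f1 in small intestine and 5 rose and 1 fell in liver, of 35 tested in each. Over all genes, 15.4% rose and 11.5% fell in small intestine, and 6.86% rose and 4.86% fell in liver. Wdr5 and Dpy30, subunits shared by the H3K4 complexes, rose in both, with slopes of 0.40 and 0.38 in small intestine and 0.27 and 0.38 in liver (adjusted p = 3.92e-05, 7.59e-05, 0.00433 and 0.0132); both were picked out after their values were seen.

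The members were also set against the proliferation level within each tissue, by an edgeR slope chosen after seeing the data. In small intestine 8 of 42 rose with it, against 14.9% of all genes, and 0 fell, against 6.23%. They were Setd6 (0.47 ± 0.13), Eed (0.38 ± 0.11), Ezh2 (0.38 ± 0.10), Nsd2 (0.33 ± 0.06), Kdm1a (0.32 ± 0.06), Suz12 (0.30 ± 0.06), Kdm2b (0.22 ± 0.06) and Kdm5a (0.19 ± 0.06), with adjusted p from 0.00163 to 0.0341. These were 19.0% of the members tested, against the 14.9% of all genes. Ezh2, Eed and Suz12 were among them, and Ezh1 was at -0.08 (adjusted p = 0.435). Without the library highest in that level 4 were called up, or 9.52% against 9.08% of all genes. With library totals 24 were, or 57.1% against 40.4%.

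In spleen 1 of 42 members rose with the proliferation level, against 1.11% of all genes, and 0 fell, against 0.288%. It was Ezh2, at 0.67 ± 0.11 (edgeR adjusted p = 0.031). Its CPM was 78.8 and 85.6 in the libraries with the highest and second highest proliferation level and 19.2 in that with the lowest, so the order of the CPM was not exactly that of the level. Without the highest library the slope was 0.72 (adjusted p = 0.299), and without the lowest 0.59 (adjusted p = 0.0718), so the call was lost in each case.

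In heart 0 members rose, against 2.2% of all genes, and 9 fell, against 2.59%. Kmt2b, Setd1b, Kmt2d, Ehmt1, Setd1a, Setd5, Kmt2a, Nsd1 and Setd2 had slopes from -1.71 to -0.69, and 5 of them are H3K4 writers. The 9 calls depended on 1 library. Its proliferation level of 2.77 stood apart from 1.18 to 1.71 in the other 13, and it held the lowest CPM of each of the 9. Without it edgeR called 0 members, but also 0 of all 14164 genes tested, so the loss of calls is not particular to the members. At an unadjusted p under 0.05, 4 members were down, as were 874 of all genes. The median slope was then -0.227 over the members and 0.104 over all genes. Of the 9, only Kmt2a changed sign, at 0.065. Kidney, liver, brain and skeletal muscle gave 0 member calls by edgeR, against 0.535%, 0.401%, 0% and 0.768% of all genes up and 0.0979%, 0.00647%, 0% and 0.0892% down. At an unadjusted p under 0.05 they had 4, 2, 0 and 8 members up and 2, 0, 0 and 1 down. Over all genes, 1651 of 15321 were up and 1215 down in kidney, and 1068 of 15447 up and 585 down in liver. In brain 203 of 16638 were up and 318 down, and in skeletal muscle 902 of 14581 up and 1319 down. DESeq2 called 1 member up in skeletal muscle, against 0.246% of all genes, and 0 in the other 3.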

How the data were processed

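For 96 libraries the authors deposited estimated counts (genes in rows), and a table of normalised values (a signal) that was not used. The submitters' processing notes name GRCm39 and DESeq2; the sources used here name no aligner, counter or annotation and do not state the use of strand, so antisense genes and close copies are uncertain. Of the deposited values above 0, 26.8% were not whole within 1e-06. Libraries were grouped by the tissue code of their column. CPM was the estimated count over the library total, times 1000000. Totals had a median of 11317947; of 637 library pairs of the same tissue none matched (0 identical), with chi-square per gene of at least 6.24. 310 rows without a gene name stayed in the totals.

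Counts were rounded for edgeR 4.0.16 in R 4.3.3: filterByExpr, TMM (over all tissues, or within a tissue for slopes), glmQLFit and glmQLFTest, with Benjamini-Hochberg adjustment over all genes tested. SE is the absolute log2 change over the square root of F. Correlations used log2 of TMM-scaled CPM + 1 and 100000 permutations (all orders in spleen). Those with Pou5f1 used genes with at least 10 counts in a majority of the libraries or in 1 library fewer. Alternatives were DESeq2 1.42.0, library totals with and without mitochondrially encoded genes, no filter, a 1.5-fold threshold, another pseudocount, covariates and left-out libraries. Simulated data had 200 changed genes and the same spread setting for every gene. A changed gene was recovered at an adjusted p under 0.05 in the right direction, without the 2-fold threshold used for tissue calls. By that rule the tissue contrast recovered 100% of the 186 tested genes with a 2-fold change. The liver slope recovered 1.01% of slopes of 0.1 and 98.5% of slopes of 0.3. Tables were handled in Python 3.11.15 with pandas 2.3.3, scipy 1.17.1 and numpy 2.4.6.

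Named were the PRC2 core, the 3 members with the largest change per direction and tissue, and up to 5 per Pou5f1 relation and direction with the smallest adjusted p; in the pathway lists, the 2 largest called changes per tissue. Members named outside that rule were picked with their values in view. The members and lists were chosen with earlier results of these data known. Tests on the proliferation level, and the difference of slopes, were added after seeing the data.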

Additional observations from a re-analysis of the deposited data

Results flagged for a closer look

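In spleen 43 sets of values were checked, those of 42 members and the log2 ratio of Ezh2 to Ezh1. In 4 of them, all members, the gap from the highest library to the next exceeded Dixon's 95% critical value for 7 samples. For independent values chance gives about 1 in 20, but these values all came from the same 7 libraries. The share of all genes with such a gap was not determined. Ehmt2 was at 393 CPM against 251 for the next, Kdm3a at 85.8 against 60.9, Kmt2b at 282 against 166 and Setd1a at 163 against 103. All 4 values came from the same library, so they are not separate observations. It had the highest Pou5f1 of the spleen libraries, at 14.3 CPM, and no link with Pou5f1 was tested in spleen. It also had the highest TMM factor within spleen, 1.12, and the values checked were CPM without that scaling. The other flagged value is the difference of the Suv39h1 slope on Pou5f1 between small intestine and liver, 0.331 with an edgeR adjusted p of 0.0188. That difference was not refitted under other settings.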

How the results depend on the processing

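No paired analysis was possible because the running number in the column names is not tied by the labels to an animal or a replicate. With library totals, members called higher and lower were 1 and 1 in kidney, 0 and 6 in liver, 5 and 0 in small intestine, 0 and 10 in heart, 11 and 0 in brain, 1 and 21 in skeletal muscle and 33 and 0 in spleen. Of all genes 22.4% and 10.2% were called so in kidney, 14.3% and 28.1% in liver and 22.2% and 18.2% in small intestine. The shares were 13.3% and 27.2% in heart, 37.5% and 16.5% in brain, 9.09% and 46.5% in skeletal muscle and 40.4% and 9.74% in spleen. The share of higher among all calls went from 56.7% to 68.8% in kidney, 46.7% to 33.7% in liver, 49.1% to 32.8% in heart, 55% to 69.5% in brain, 41.7% to 16.4% in skeletal muscle and 51.6% to 80.6% in spleen. Totals without mitochondrially encoded genes gave 2 higher in kidney, 0 higher and 9 lower in liver, 9 higher and 1 lower in brain, 1 higher and 21 lower in skeletal muscle and 26 higher in spleen. By that scaling 23.5% of all genes were higher in kidney, 13.5% higher and 30.6% lower in liver and 34.7% and 18.6% in brain. In skeletal muscle 9.48% were higher and 45.3% lower, and in spleen 33.9% were higher. A log2 threshold of 0.58 gave 2 and 9 in kidney, 3 and 9 in liver, 6 lower in small intestine, 4 and 10 in heart, 10 and 8 in brain, 14 lower in skeletal muscle and 22 and 2 in spleen. At that threshold 23.7% and 20.7% of all genes were called in kidney, 25.4% and 27% in liver and 26.2% lower in small intestine. The shares were 23.5% and 25.8% in heart, 35.3% and 30.3% in brain, 32.1% lower in skeletal muscle and 27.3% and 25.2% in spleen. DESeq2 gave 1 lower in small intestine, against 21.3% of all genes, and no filter gave 2 higher in skeletal muscle, against 15.1%. No tissue change of a named member reversed under these settings.

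For the Pou5f1 slopes, leaving out the 2 farthest libraries gave 2 up and 2 down in liver and 0 and 0 in small intestine. The shares of all genes up and down were 9.69% and 10.3% in liver and 2.27% and 1.39% in small intestine. With only libraries at 1 CPM or more, 0 members were up in liver and 0 up and 0 down in small intestine. Of all genes 0% were up in liver, and 3.2% were up and 4.49% down in small intestine. Kmt5a in liver had -0.30 in that setting. In brain, skeletal muscle and spleen too few libraries reach that level. Without the library highest in Pou5f1, liver had 4 up and 4 down, small intestine 2 up, heart 1 up and brain 1 up. The shares of all genes were 14% up and 15.7% down in liver, and 9.41%, 0.391% and 3.53% up in the other 3. DESeq2 gave 3 up and 2 down in liver, 2 up in heart and 1 up in brain. Its shares of all genes were 9.18% up and 8.19% down in liver, 2.51% up in heart and 1.75% up in brain. The mitochondrial share as a covariate gave 2 up in liver, against 6.49% of all genes, and a pseudocount of 0.5 gave 3, against 7.7%. In small intestine, library totals gave 0 down, against 3.65% of all genes. The set without the 2 libraries of high mitochondrial share gave 10 up and 5 down, against 20% and 18.3%. The proliferation level as a covariate gave 1 up and 1 down, against 4.53% and 5.44%, with Nsd2 at -0.028 and Ezh2 at -0.0313.

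For the proliferation slopes, library totals gave 2 up in kidney, 24 up in small intestine and 4 down in heart, against 7.09%, 40.4% and 1.12% of all genes. Without the highest library there were 1 up and 2 down in kidney, 4 up in small intestine, 0 down in heart, with Kmt2a at 0.0646, 8 up in skeletal muscle and 0 up in spleen. The shares of all genes were 5.47% and 3.98% in kidney, 9.08% in small intestine, 0% in heart, 4.16% in skeletal muscle and 0% in spleen. Without the lowest library there were 3 down in small intestine and 0 up in spleen, against 13% and 0.587% of all genes. DESeq2 gave 2 down in small intestine, 18 down in heart and 1 up in skeletal muscle, against 12.7%, 8.04% and 0.246% of all genes. The set without the 2 libraries of high mitochondrial share gave 2 down in small intestine, against 15.6%. The causes were not tested. On simulated liver libraries 1.01% of Pou5f1 slopes of 0.1 were recovered; Pou5f1 slopes in other tissues and proliferation slopes were not simulated.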
